A study of Mus musculus with 32 samples.

Results

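1110032E23Rik is a mouse transcript measured by 1 of the 33012 noncontrol probes on each array, and it was selected on its log2 signals and signal-to-noise ratios (S/N) in all 8 groups of genotype, cell type and treatment, under the name of a macrophage-enriched transcript repressed by rosiglitazone (RSG). Since these values chose it, its levels and its differences between cell types, treatments and genotypes are given as a description with no test. The files list the probe as AK008987.1. The symbol comes from the accession and symbol columns of the study's supplementary tables, and RefSeq (GRCm38.p6) lists that symbol as a synonym of Gask1b on chromosome 3. No other probe could be matched to this gene, but 32693 of the 33012 probes could not be named. Whether any of those targets it is not known here. 1 clone-derived probe therefore carries every value below, and its place on the transcript was not analysed here.

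Gask1b, also called Fam198b and Ened, encodes Golgi-associated kinase 1B, a membrane protein of the Golgi apparatus that belongs with the four-jointed and FAM20 group of secretory pathway kinases. PPARγ is a nuclear receptor that binds DNA as a heterodimer with the retinoid X receptor, and IL-4 is known to induce it in macrophages. RSG is a synthetic agonist of PPARγ. Ligand-bound PPARγ raises the transcription of lipid handling genes, and it is also known to lower the transcription of some inflammatory genes.

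Bone marrow cells of 8 C57Bl/6 mice were cultured for 9 days. Mice 1 to 4 were Pparg+/- LysCre, and mice 5 to 8 were Pparg fl/- LysCre. Cells of each mouse became macrophages in M-CSF and IL-4 or immature dendritic cells (iDCs) in GM-CSF and IL-4, each cytokine at 20 ng/ml, and were given vehicle (DMSO and ethanol) or 1 μM RSG. This made 8 groups of 4 arrays, with 4 arrays from each mouse. Both genotypes carry a null Pparg allele and the LysCre transgene, in which the lysozyme promoter drives Cre recombinase in myeloid cells. The Pparg+/- LysCre cells keep a working allele, whereas in Pparg fl/- LysCre cells Cre is meant to remove the loxP-flanked allele. How completely it did so in these macrophages and iDCs was not measured here. No probe could be named for Pparg, for any of 14 PPARγ target genes, for 10 macrophage markers or for 10 dendritic cell markers. The genotype and cell type labels were therefore not checked against them here.

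The level is the log2 of the background-corrected signal after quantile normalization over the 32 arrays, and an S/N of 3 or more was the condition for detection. Arrays detected 13595 to 16683 probes, and arrays of the same group correlated across probes at a Pearson's r of 0.940 to 0.968. The arrays were scanned on 4 days, each with 8 arrays of 2 mice of the same genotype. Genotype and scan day therefore cannot be told apart, while each day held both cell types and both treatments. Mouse 5 stood apart from the other Pparg fl/- LysCre mice over the whole array. In vehicle-treated macrophages, limma called 26 of the 16620 tested probes (0.156%) between genotypes with this mouse and 2488 without it, at an adjusted p (Benjamini-Hochberg) under 0.05 and a 1.5-fold difference. Tested probes were those that 3 or more arrays of some group detected. For 1110032E23Rik, the means and differences of Pparg fl/- LysCre cells are given with and without mouse 5. The probe of Ear1, an eosinophil-associated ribonuclease, was detected on all 32 arrays and its group means ran from 14.87 to 19.29. The probe of Hba-a1, an erythroid globin, was detected on 18 arrays with group means of 7.93 to 11.47. The probe of Eraf, an alpha-hemoglobin chaperone, was detected on 7 arrays with group means of 6.28 to 9.78. Apart from 9.78 in RSG-treated Pparg+/- LysCre iDCs, its group means were 6.28 to 7.01 and rest mostly on arrays below detection. Differences among those means are mostly noise. Ear1, Hba-a1 and Eraf were the 3 of 26 listed markers of other cell types that had a named probe. Whether they mark other cells in these cultures was not tested, nor was their part in the values of 1110032E23Rik.

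In vehicle-treated Pparg+/- LysCre macrophages 1110032E23Rik had log2 levels of 13.49, 13.58, 13.50 and 13.54 in mice 1 to 4 (mean 13.53 ± 0.04 SD, n = 4). With RSG the same mice had 12.78, 12.66, 13.03 and 13.07 (mean 12.89 ± 0.19 SD, n = 4). All 4 RSG arrays lay below all 4 vehicle arrays.

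In vehicle-treated Pparg fl/- LysCre macrophages the levels were 13.51, 12.99, 13.43 and 13.03 in mice 5 to 8 (mean 13.24 ± 0.27 SD, n = 4, and 13.15 without mouse 5). With RSG they were 13.40, 13.05, 12.91 and 12.42 (mean 12.95 ± 0.41 SD, n = 4, and 12.79 without mouse 5). Here vehicle and RSG arrays overlapped. Mouse 5 was the highest of the 4 in both treatments and mouse 8 was the lowest with RSG. The transcript was well above background on all 16 macrophage arrays, where the S/N ran from 20.89 to 59.63 and the standard deviation of the signal was 1.68% to 4.79% of the signal.

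In vehicle-treated Pparg+/- LysCre iDCs the levels were 9.14, 10.03, 9.92 and 10.05 in mice 1 to 4 (mean 9.79 ± 0.44 SD, n = 4), and all 4 arrays detected the probe (S/N 5.00, 8.93, 7.50 and 4.56). With RSG the levels were 9.27, 8.97, 7.81 and 7.46 (mean 8.38 ± 0.88 SD, n = 4). The S/N of these RSG arrays was 7.90, 4.72, 1.36 and 1.08, so mice 1 and 2 still had a detected transcript and mice 3 and 4 did not.

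In vehicle-treated Pparg fl/- LysCre iDCs the levels were 8.91, 7.60, 7.60 and 7.52 in mice 5 to 8 (mean 7.91 ± 0.67 SD, n = 4, and 7.57 without mouse 5), with S/N of 11.61, 1.40, 1.29 and 0.14. Only mouse 5 detected the probe, and in mouse 8 the listed signal was its own standard deviation. With RSG the levels were 9.68, 7.98, 8.39 and 9.14 (mean 8.80 ± 0.76 SD, n = 4, and 8.50 without mouse 5) with S/N of 4.88, 1.56, 1.80 and 5.73, so mice 5 and 8 detected it. The log2 values of arrays below detection are mostly noise and have no order among themselves.

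**Figure D1:**
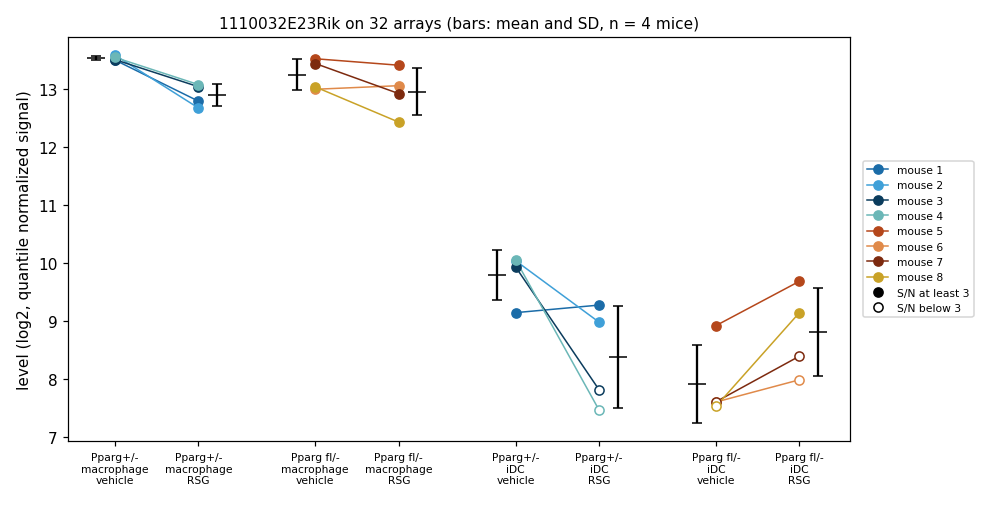
Level of 1110032E23Rik (log2, quantile normalized signal) on each of the 32 arrays, with a line joining vehicle and RSG of the same mouse, filled points at S/N of at least 3, open points below it, and bars for the group mean and SD (n = 4). The 16 macrophage arrays lie between 12.42 and 13.58 and the 16 iDC arrays between 7.46 and 10.05.

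**Figure D2:**
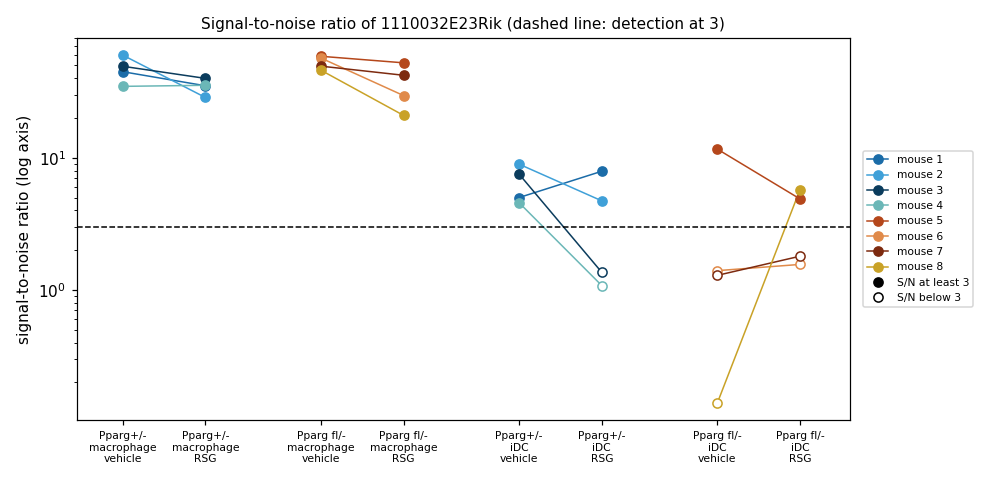
S/N of the probe on each array on a log axis, by group and mouse, with the detection limit of 3 as a dashed line. All 16 macrophage arrays are above 20.89 or at it, while 7 of the 16 iDC arrays fall below the line.

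By mean level, vehicle-treated Pparg+/- LysCre macrophages came first, followed by vehicle-treated Pparg fl/- LysCre macrophages, RSG-treated Pparg fl/- LysCre macrophages and RSG-treated Pparg+/- LysCre macrophages. Vehicle-treated Pparg+/- LysCre iDCs came next, then RSG-treated Pparg fl/- LysCre iDCs, RSG-treated Pparg+/- LysCre iDCs and vehicle-treated Pparg fl/- LysCre iDCs. The step from the lowest macrophage group to the highest iDC group was 3.10 on the log2 scale, against a larger SD of 0.44 in that pair. The first and the second group were 0.29 apart, with a larger SD of 0.27, and their arrays overlapped. The fifth and the sixth were 0.99 apart with a larger SD of 0.76, but 0.57 apart with undetected arrays at their detection limit. Neighbours in the remaining 4 steps were 0.06 to 0.47 apart, within the larger SD of their pair. Neighbouring groups within a cell type are therefore not resolved.

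The difference between cell types, taken within each mouse as iDC minus macrophage, was below 0 in 8 of 8 mice with vehicle and in 8 of 8 with RSG. In vehicle-treated Pparg+/- LysCre cells it was -4.35, -3.54, -3.57 and -3.49 in mice 1 to 4, a mean of -3.74 ± 0.41 (SD, n = 4) or 13.4-fold. Of the 16620 tested probes, 92 had a difference at least as low in this comparison. All arrays of this comparison detected the transcript, so the value rests on measured levels on both sides. From macrophages to iDCs of these groups the mean of the Ear1 probe went from 17.54 to 14.98, that of the Hba-a1 probe from 8.14 to 9.99 and that of the Eraf probe from 6.80 to 6.79.

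In vehicle-treated Pparg fl/- LysCre cells the difference was -4.60, -5.39, -5.83 and -5.51 in mice 5 to 8 (mean -5.33 ± 0.52 SD, n = 4). 3 of these 4 iDC arrays were below detection, so the listed values of mice 6, 7 and 8 are not measured differences. When each array below detection was instead given the signal that an S/N of 3 would need, the mean was -4.36, or 20.5-fold. Without mouse 5 no iDC array of the group detected the transcript, and the listed mean was -5.57, or -4.27 at the detection limit. The mean of the Ear1 probe went from 15.42 to 14.87, that of the Hba-a1 probe from 11.47 to 9.91 and that of the Eraf probe from 6.28 to 6.94.

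With RSG the difference was -3.51, -3.69, -5.22 and -5.61 in Pparg+/- LysCre mice 1 to 4 (mean -4.51 ± 1.06 SD, n = 4). It was -3.72, -5.07, -4.52 and -3.28 in Pparg fl/- LysCre mice 5 to 8 (mean -4.15 ± 0.80 SD, n = 4, and -4.29 without mouse 5). At the detection limit these means were -3.86 and -3.73, the second also without mouse 5. The mean of the Ear1 probe went from 19.29 to 17.79 in the Pparg+/- LysCre groups and from 16.17 to 17.15 in the Pparg fl/- LysCre groups. That of the Hba-a1 probe went from 7.93 to 9.16 and from 11.37 to 9.84, and that of the Eraf probe from 7.01 to 9.78 and from 6.75 to 6.48. In all 4 comparisons the lowest macrophage array was above the highest iDC array, whichever of these values was used.

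The RSG change, taken within each mouse as RSG minus vehicle, was below 0 in all 4 Pparg+/- LysCre macrophage cultures. It was -0.71, -0.91, -0.47 and -0.47 in mice 1 to 4, a mean of -0.64 ± 0.21 (SD, n = 4) or 1.56-fold lower. The size differed between scan days, at -0.81 for mice 1 and 2 and -0.47 for mice 3 and 4. Of the 16620 tested probes 7.82% had a change at least as low. The median change of all tested probes was -0.03 after quantile normalization and -0.18 after scaling each array to the same median, and under that scaling the change of 1110032E23Rik was -0.85. The mean of the Ear1 probe went from 17.54 to 19.29 in the same comparison, that of the Hba-a1 probe from 8.14 to 7.93 and that of the Eraf probe from 6.80 to 7.01. The RSG arrays also detected fewer probes than the vehicle arrays of the same mice. The number went from 15144 to 13959, from 15918 to 15250, from 15590 to 13933 and from 15433 to 13830 in mice 1 to 4. Its part in the change of 1110032E23Rik was not tested.

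In Pparg fl/- LysCre macrophages the RSG change was -0.11, 0.06, -0.52 and -0.61 in mice 5 to 8 (mean -0.29 ± 0.32 SD, n = 4). Mice 5 and 6, from the same scan day, were near 0 (mean -0.03), and mice 7 and 8 had a mean of -0.56. Without mouse 5 the mean was -0.35, without mouse 6 it was -0.41 and without mouse 8 it was -0.19. The mean of the Ear1 probe went from 15.42 to 16.17, that of the Hba-a1 probe from 11.47 to 11.37 and that of the Eraf probe from 6.28 to 6.75. A change at least as low was found for 13.1% of the tested probes. The number of detected probes went from 15293 to 15126 and from 15650 to 15227 in mice 5 and 6. It went from 16009 to 14743 and from 15879 to 14197 in mice 7 and 8, and its part in these changes was not tested.

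In Pparg+/- LysCre iDCs the RSG change was 0.13, -1.06, -2.12 and -2.59 in mice 1 to 4 (mean -1.41 ± 1.21 SD, n = 4), and it ran from -1.92 without mouse 1 to -1.02 without mouse 4. As listed, 250 of the 16620 tested probes had a change at least as low, but the mean includes 2 RSG arrays below detection and this number was not recomputed at the limit. Mouse 1 did not fall, and the within-day means were -0.46 for mice 1 and 2 and -2.35 for mice 3 and 4. The 2 lowest changes are those whose RSG array was below detection. At the detection limit they were -0.98 and -1.12, and the mean of the 4 mice was -0.76, or 1.69-fold lower. From vehicle to RSG the mean of the Ear1 probe went from 14.98 to 17.79, that of the Eraf probe from 6.79 to 9.78 and that of the Hba-a1 probe from 9.99 to 9.16. The part of these probes in the change of 1110032E23Rik was not tested.

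In Pparg fl/- LysCre iDCs the RSG change was 0.76, 0.38, 0.79 and 1.62 in mice 5 to 8 (mean 0.89 ± 0.52 SD, n = 4, and 0.93 without mouse 5). Only mouse 5 had both arrays detected, and mice 6 and 7 had neither. The vehicle arrays of mice 6, 7 and 8 were already below detection, so a fall with RSG could not have been seen there, and their listed values give no direction for mice 6 and 7. At the detection limit the mean was 0.33, and 0.19 without mouse 5. In mouse 5 the signal before normalization was 777 with vehicle and 516 with RSG, while the median signal of the whole array was 613 and 270, so its rise is relative to the other probes of the array. The within-day means were 0.57 for mice 5 and 6 and 1.20 for mice 7 and 8. The mean of the Ear1 probe went from 14.87 to 17.15, that of the Hba-a1 probe from 9.91 to 9.84 and that of the Eraf probe from 6.94 to 6.48.

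Both arrays of the RSG comparison detected the transcript in 8 of 8 mice for macrophages but in 3 of 8 mice for iDCs. Those iDC changes were 0.13 in mouse 1, -1.06 in mouse 2 and 0.76 in mouse 5, which do not share a direction. The RSG change in iDCs minus that in macrophages of the same mouse was 0.84, -0.15, -1.65 and -2.12 in mice 1 to 4. The mean of mice 1 to 4 was -0.77, and it ran from -1.31 without mouse 1 to -0.32 without mouse 4. In mice 5 to 8 this difference was 0.88, 0.32, 1.30 and 2.22, with a mean of 1.18, and 1.28 without mouse 5. At the detection limit the difference was -0.51 in mouse 3, -0.65 in mouse 4, 0.17 in mouse 6, 0.82 in mouse 7 and 0.64 in mouse 8. The means were then -0.12 for mice 1 to 4 and 0.63 for mice 5 to 8, and the second was 0.54 without mouse 5.

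**Figure D3:**
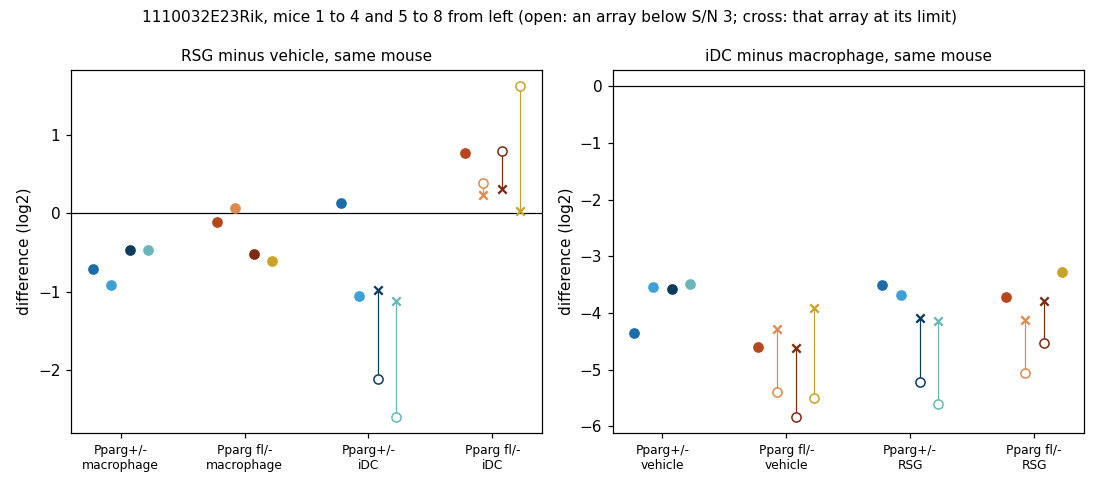
Difference in log2 level within each mouse, for RSG minus vehicle (left) and iDC minus macrophage (right), with filled points where both arrays were detected, open points where at least 1 was not, and crosses for the same mouse with such an array set to its detection limit. The 8 macrophage RSG changes lie between -0.91 and 0.06, the iDC RSG changes between -2.59 and 1.62, and the cell type differences all lie below -3.28 or at it.

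The genotype differences rest on the same values of all 8 groups that chose the transcript, so they too are given as a description, with no test. Each is Pparg fl/- LysCre minus Pparg+/- LysCre on the log2 scale, with its standard error (SE) from a limma fit in which the 16 arrays of a cell type shared an estimate of the spread. For the differences in RSG change, which are taken within mice, the SE with the mouse as a replicate block is given as well.

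In vehicle-treated macrophages the difference was -0.29 (SE 0.18, 4 mice a genotype). Mouse 5 lay within the range of the Pparg+/- LysCre mice, and mice 6, 7 and 8 lay below it. Without mouse 5 the difference was -0.38, and without mouse 6 it was -0.20. The Ear1 probe had means of 17.54 and 15.42 in these Pparg+/- LysCre and Pparg fl/- LysCre groups, the Hba-a1 probe 8.14 and 11.47, and the Eraf probe 6.80 and 6.28. In RSG-treated macrophages it was 0.06 (SE 0.18), with overlapping groups, and it was -0.093 without mouse 5 and -0.015 without mouse 2, so its direction is not settled. The means of these groups were 19.29 and 16.17 for the Ear1 probe, 7.93 and 11.37 for the Hba-a1 probe and 7.01 and 6.75 for the Eraf probe, and the part of these markers in the macrophage values was not tested. The RSG change in macrophages was -0.64 in Pparg+/- LysCre mice and -0.29 in Pparg fl/- LysCre mice, a difference of 0.34 (SE 0.26, or 0.19 with the block), and the changes of both genotypes overlapped. It was 0.28 without mouse 5, 0.23 without mouse 6 and 0.45 without mouse 8.

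In vehicle-treated iDCs the mean was lower in Pparg fl/- LysCre cells, with a difference of -1.88 (SE 0.47), or 3.67-fold. The highest Pparg fl/- LysCre mouse, at 8.91, lay below the lowest Pparg+/- LysCre mouse, at 9.14. For 3 of the 4 Pparg fl/- LysCre mice the array gives a bound rather than a level, and with undetected arrays at their detection limit the difference was -0.90. Without mouse 5 it was -2.21 as listed and -0.91 at the detection limit. The Ear1 probe had means of 14.98 and 14.87 in these Pparg+/- LysCre and Pparg fl/- LysCre groups, the Hba-a1 probe 9.99 and 9.91, and the Eraf probe 6.79 and 6.94.

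In RSG-treated iDCs the difference between genotypes was 0.42 (SE 0.47), and 0.13 without mouse 5 (0.032 at the detection limit). Leaving out each mouse gave 0.11, without mouse 4, to 0.72, without mouse 1. The groups overlapped, with 2 of 4 arrays detected in each. The means of these Pparg+/- LysCre and Pparg fl/- LysCre groups were 17.79 and 17.15 for the Ear1 probe, 9.16 and 9.84 for the Hba-a1 probe and 9.78 and 6.48 for the Eraf probe. The RSG change in iDCs was -1.41 in Pparg+/- LysCre mice and 0.89 in Pparg fl/- LysCre mice, a difference of 2.30 (SE 0.66, or 0.57 with the block), and 2.34 without mouse 5. The listed changes ran from -2.59 to 0.13 in Pparg+/- LysCre mice and from 0.38 to 1.62 in Pparg fl/- LysCre mice, but in only 3 of the 8 mice did both arrays detect the transcript. At the detection limit the difference was 1.09 (0.94 without mouse 5), and the changes of both genotypes overlapped.

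**Figure D4:**
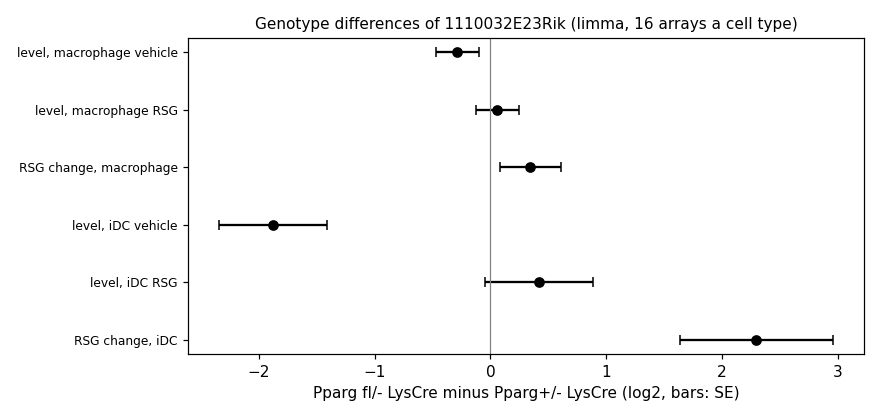
Genotype differences of 1110032E23Rik (Pparg fl/- LysCre minus Pparg+/- LysCre, log2) for the level in each cell type and treatment and for the RSG change in each cell type, as points with the SE from limma over the 16 arrays of a cell type. The macrophage differences lie between -0.29 and 0.34 and the iDC differences between -1.88 and 2.30.

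The probes whose pattern was most like that of 1110032E23Rik were ranked by Pearson's r of log2 levels over the 32 arrays, which share 8 mice, 4 scan days and the split into 2 cell types. Among the 16619 other tested probes, 387 had an r of at least 0.9. The 5 highest were listed only by gene model identifier, so whether any of them targets the same gene is not known here. These were mCG20644.1 (r = 0.979), mCG4390.3 (0.977), mCG129870.1 (0.977), mCG141300 (0.974) and mCG2613.2 (0.974). The lowest were mCG141359 (-0.964), mCG67966.1 (-0.959) and mCG51120.2 (-0.957).

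Within the 16 macrophage arrays the 5 highest probes had an r of 0.562 to 0.788 with 1110032E23Rik, and within the 16 iDC arrays 0.740 to 0.781. For deviations from the 8 group means their r was 0.548 to 0.667. Since the probes were picked over these same arrays, part of this likeness follows from the choice, and none of them was among the 5 highest by deviations alone, where the highest r was 0.865. Their cell type difference in vehicle-treated Pparg+/- LysCre cells was -3.23 to -1.66, against -3.74 for 1110032E23Rik. In vehicle-treated iDCs their difference between genotypes (Pparg fl/- LysCre minus Pparg+/- LysCre) was -1.30 to -0.63. Their RSG change was -1.47 to -0.30 in Pparg+/- LysCre iDCs and -0.10 to 0.31 in Pparg fl/- LysCre iDCs. These values follow in part from the choice too, since the r of these probes over the 8 group means was 0.990 to 0.996. The share of all tested probes with such differences was not counted. On 7 of the 16 iDC arrays 1110032E23Rik was below detection, so correlations that use iDC arrays include such values. Of the 5 probes, mCG141300 was detected on 27 of the 32 arrays and the others on all 32. The differences of -1.30 and -1.47 above are those of mCG141300.

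Of the 162 tested probes with a gene symbol, the highest r was found for Lgals1 (0.931), which encodes the lectin galectin-1, and Hipk2 (0.921), a nuclear serine/threonine kinase. Next were Jun (0.919), a subunit of the AP-1 transcription factor, the histone gene H2bc13 (0.915) and Tceal9 (0.915). The lowest were Lrrk1 (-0.951), a leucine-rich repeat kinase, Zkscan17 (-0.922), a zinc finger gene, and Stat5a (-0.915), a transcription factor activated by cytokines such as GM-CSF. Within the macrophage arrays the r of the 5 highest named genes was -0.620 to 0.483, and within the iDC arrays -0.184 to 0.298. For Lrrk1, Zkscan17 and Stat5a it was 0.492, -0.594 and -0.0061 within the macrophage arrays. Within the iDC arrays it was -0.464, -0.115 and -0.103. The cell type difference of the 5 highest in vehicle-treated Pparg+/- LysCre cells was -3.86 to -1.08. Their RSG change in Pparg+/- LysCre iDCs was -0.12 to 1.05.

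RefSeq places a transcription start of Gask1b on the plus strand of chromosome 3, and the 250 bases before it are printed because RSG acts through a receptor that binds DNA and all of these cells were grown in IL-4. The window is chr3:79885680-79885929 (GRCm38.p6, plus strand). It lies inside the annotated span of Gask1b, which begins 1196 bases ahead of it, and the lncRNA gene Gm36569 overlaps it. It is in lower case throughout since none of the motifs searched was found.
Gask1b promoter: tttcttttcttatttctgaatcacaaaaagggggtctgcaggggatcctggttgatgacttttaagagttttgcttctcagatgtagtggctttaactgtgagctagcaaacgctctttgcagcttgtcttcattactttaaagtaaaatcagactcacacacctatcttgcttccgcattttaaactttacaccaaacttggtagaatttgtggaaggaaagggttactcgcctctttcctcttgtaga
The letters AGGTCA, the half-site of many nuclear receptors, were searched on both strands in the 300 bases that run to 50 bases past the start. They were absent, as was their direct repeat with 1 base between the copies (DR1), the arrangement that PPARγ and the retinoid X receptor bind. The palindrome of the STAT6 motif, with 4 bases between its arms, was absent too. Of 32851 RefSeq windows of the same length, 16.3% held AGGTCA, 0.0396% held the direct repeat, which contains AGGTCA, and 6.95% held the STAT6 palindrome. The absence says only that these letters are not in this window.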

How the data were processed

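For each of 32 single-color Applied Biosystems chemiluminescence arrays the authors deposited the intensity of every probe after background correction, with a standard deviation, quality flags and a signal normalized by the assay software. The deposited S/N is a score that, above 1, equals the signal over its standard deviation. At an S/N of 1 or less the listed signal is the standard deviation itself. A deposited table of linear ratios for the same arrays served as an alternative. Up to a factor per array and a factor per probe it matched the signals within 0.05 (log2) for 99.99% of values, and its column medians were 0.951 to 1.06. The sources do not state the factor per array for these arrays, but every difference from the ratios was close to that from scaling each array to its median. The scanner software is not given in the sources used here.

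Here log2 signals were quantile normalized. With detection set at an S/N of 3, the 16620 of 33012 noncontrol probes that were detected on 3 or more arrays of some group were fitted with limma 3.58.1 in R 4.3.3, after the script was tested on simulated data. In that simulation, changes of 1 (log2) were planted in 200 probes. As genotype differences, 51% to 56.5% of them were called, and as differences in RSG change 30.5% to 32.5%. Precision is limited by the number of arrays. Levels, differences and correlations were computed with Python 3.11.15, numpy 2.4.6, pandas 2.3.3 and scipy 1.17.1. Probes were named through RefSeq accessions (311) or the supplementary tables (8).

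Per the labels, equal numbers mark a shared mouse. Over all tested probes, vehicle and RSG arrays of a mouse in 1 cell type deviated together from their group means, with a median correlation of 0.284 (0.00953 to 0.623), against -0.0200 between mice. The reported fit had no block, and for differences in RSG change, which are taken within mice, the SE with the block stands beside it.

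Because the values of all 8 groups chose the transcript, the limma and permutation tests of genotype planned for it are not reported as tests, and no p is given. The transcript and the gene lists were chosen with earlier results of these data known. Genes named were 1110032E23Rik, the 5 probes with the highest and the 3 with the lowest r among all tested probes and among those with a symbol, and members of the lists with a named probe. The lists held 13 genes of the secretory pathway kinase group (1 with a named probe, 1110032E23Rik itself), 14 PPARγ target genes, 9 alternative activation genes, Pparg, 10 macrophage markers and 10 dendritic cell markers (none with a named probe), and 26 markers of other cell types (3 with a named probe). Alternatives were median scaling, the ratios, the assay-normalized signal, an offset, flags, filters, the arrays in the fit, the mouse or scan day as a block, the scan days apart and leaving out each mouse. Setting undetected values to the signal that an S/N of 3 needs was added after seeing the data.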

Additional observations from a re-analysis of the deposited data

Results flagged for a closer look

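The 18 sets of 4 mice (8 levels, 8 changes or differences, and 2 differences between RSG changes) share arrays and hold the values that chose the transcript, so what follows is a description. A gap to the nearest value beyond Dixon's 95% critical share of the range, which about 1 in 20 independent sets would show, was found in 3 of them. In vehicle-treated Pparg+/- LysCre iDCs mouse 1 had a level of 9.14 against 9.92 to 10.05 in mice 2 to 4, a gap of 0.864 of the range. The cell type difference of mouse 1, -4.35, contains the same array and had a gap of 0.902 of the range. In vehicle-treated Pparg fl/- LysCre iDCs mouse 5 had 8.91 against 7.52 to 7.60 (0.943 of the range), but the other 3 arrays were below detection. At their detection limit they were 8.70, 8.82 and 9.11, and mouse 5 lay within them.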

How the results depend on the processing

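The 8 changes and differences within mice kept their direction in all 96 alternatives, and 94 moved by less than the SD between mice or, where a setting touches no value of this probe, not at all. The exceptions set undetected values to their detection limit, which gave an RSG change of 0.33 in Pparg fl/- LysCre iDCs and a cell type difference of -4.36 in vehicle-treated Pparg fl/- LysCre cells. The RSG change in iDCs minus that in macrophages of Pparg+/- LysCre mice turned to 0.34 within the first scan day. Of 114 values of the 6 genotype differences under the alternatives, 39 equalled the reported value, since filters, blocks and the choice of arrays alter only the SE, and the flags and, in macrophages, the detection limit touch no value of this probe. Of the other 75, 71 kept their direction and moved by less than the larger SD of the pair. Among these 71 is the difference in iDC RSG change, which fell from 2.30 to 1.09 at the detection limit. That move was only just under the larger SD of 1.21, which itself includes arrays below detection, and the changes of both genotypes then overlapped. The difference in vehicle-treated iDCs was -0.90 at the detection limit, and leaving out each replicate gave -2.21 to -1.75. The difference in RSG-treated macrophages was -0.039 with the assay-normalized signal, and leaving out each replicate gave -0.093 to 0.23. The mouse as a replicate block left the difference in iDC RSG change at 2.30 and changed its SE from 0.66 to 0.57. The planned methods' t-test and permutation test leave the differences as they are, and no p is given for values that chose the transcript. With the spread of the t-test, which uses only the groups compared, the SE was 0.14 (vehicle) and 0.23 (RSG) for macrophages and 0.40 and 0.58 for iDCs, and 0.19 and 0.66 for the differences in RSG change of macrophages and iDCs. Of the 5 probes most like 1110032E23Rik, 1 was among the 5 highest by Spearman's rho and 0 by deviations from group means. The cause of these shifts was not tested. Signal over background limits the iDC values, since 7 of 16 iDC arrays did not detect the probe.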
